A study of Chlorocebus sabaeus with 45 samples.

Results

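The genes described here are 9 components of adrenergic receptor and cAMP signaling in vervet monkey blood: the G protein subunit GNAS, the G protein regulator RGS2, the arrestins ARRB1 and ARRB2, the cAMP phosphodiesterases PDE4A, PDE4B and PDE4D, and the protein kinase A subunits PRKACA and PRKAR1A. They were chosen by name, for their known place in the pathway, out of 33994 genes in each expression table. Of the 9 genes, 7 were found by symbol, and PDE4A and PRKACA were found by their RefSeq gene identifiers (LOC103234361 and LOC103234377). All 9 passed the filter on low values that left 18753 genes for testing.

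The samples were whole blood from 15 juvenile male vervets (Chlorocebus sabaeus) born wild on St. Kitts, each taken from a different troop, and every animal gave 1 library at each of 3 time points, 45 libraries in all. Day 0 was the day of capture, when blood was drawn in the field under ketamine and xylazine. By day 3 and day 14 the animals were housed individually in a research facility, and blood was drawn there under dexmedetomidine and midazolam, which were reversed with atipamezole and flumazenil after the sampling. The study used the move and the solitary housing as a social stressor, and each animal's own day 0 is its only control. Xylazine and dexmedetomidine are both alpha-2 adrenergic agonists, so every library came from an animal that had just received a drug acting on this pathway. The sedative, the place of sampling and the time since capture all differed between day 0 and the later days, and they cannot be told apart.

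In this pathway, adrenaline and noradrenaline bind receptors on the cell surface. Beta receptors act through the stimulatory G protein Gs, whose alpha subunit GNAS encodes, and Gs turns on adenylyl cyclases that make the second messenger cAMP, whereas alpha-2 receptors act through inhibitory G proteins. RGS2 shortens G protein signals, and the arrestins ARRB1 and ARRB2 bind receptors that have been phosphorylated and uncouple them from their G proteins. Phosphodiesterases of the PDE4 family break cAMP down, and in white blood cells they are the target of anti-inflammatory drugs. Protein kinase A is held inactive by regulatory subunits such as PRKAR1A and releases its catalytic subunits such as PRKACA when cAMP binds.

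The libraries held between 13216275 and 31469332 fragments on genes, with a median of 22785702. Levels are given as FPKM, fragments normalised to the length of the gene and the total of the library, after division by TMM factors, trimmed means of log ratios that align the bulk of the genes between libraries, and a gene is called at an adjusted p under 0.05 from limma over all tested genes. Over all tested genes, day 14 differed from day 0 by a median of −0.36 on the log2 scale without that scaling and of −0.02 with it. A set of 4 libraries correlated less well than the other 41 with the libraries of their own time point (median r of at most 0.943 against at least 0.952): day 0 of animals 7, 11 and 15, and day 3 of animal 8. RNA integrity, used below as a covariate, was higher on average on day 14 than on day 0, so this covariate and the time point overlap. Marker genes of blood cell types also moved between the time points. The summed level of 10 reticulocyte and erythroid precursor markers had a median of 4472 scaled FPKM on day 0 (392 to 20761), 13166 on day 3 (3562 to 38213) and 33445 on day 14 (6707 to 60340). The summed level of 10 neutrophil markers had medians of 687 (369 to 4751), 510 (179 to 986) and 412 (149 to 823). Whole blood is a mixture, and in it a change in the number of cells of a type and a change in RNA per cell cannot be told apart.

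Of the 9 genes, 3 were called on day 3 against day 0, GNAS as higher and RGS2 and PDE4B as lower, where 12.2% of all tested genes were called, 6.01% as higher and 6.19% as lower. On day 14 against day 0, 4 were called, with GNAS higher and PDE4B, RGS2 and PRKACA lower, and the share over all tested genes was 36%, with 18.8% higher and 17.3% lower. Between day 3 and day 14, 2 were called, GNAS as higher and PRKACA as lower, where 13.4% of all genes were, 8.38% as higher and 5.01% as lower. The median log2 fold changes of the 9 genes were 0.01, −0.05 and −0.09 in these comparisons, beside 0.01, −0.02 and −0.02 over all tested genes. GNAS and PDE4B on day 3 and on day 14 kept their calls under every alternative tried, while each other call was lost under at least 1. Leaving out single animals gave 3 to 4 calls on day 3 and 2 to 5 on day 14, with 2 calls left on day 14 without animal 2 or animal 11. Between day 3 and day 14, limma gave 0 calls without animal 3, 8 or 12 (3, 2 and 3 genes at an unadjusted p under 0.05), 1 without animal 2, 9 or 14, and at most 3. With the animal as a block, 5, 4 and 3 genes were called in the 3 comparisons, where 19.2%, 44% and 23.7% of all tested genes were.

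**Figure D1:**
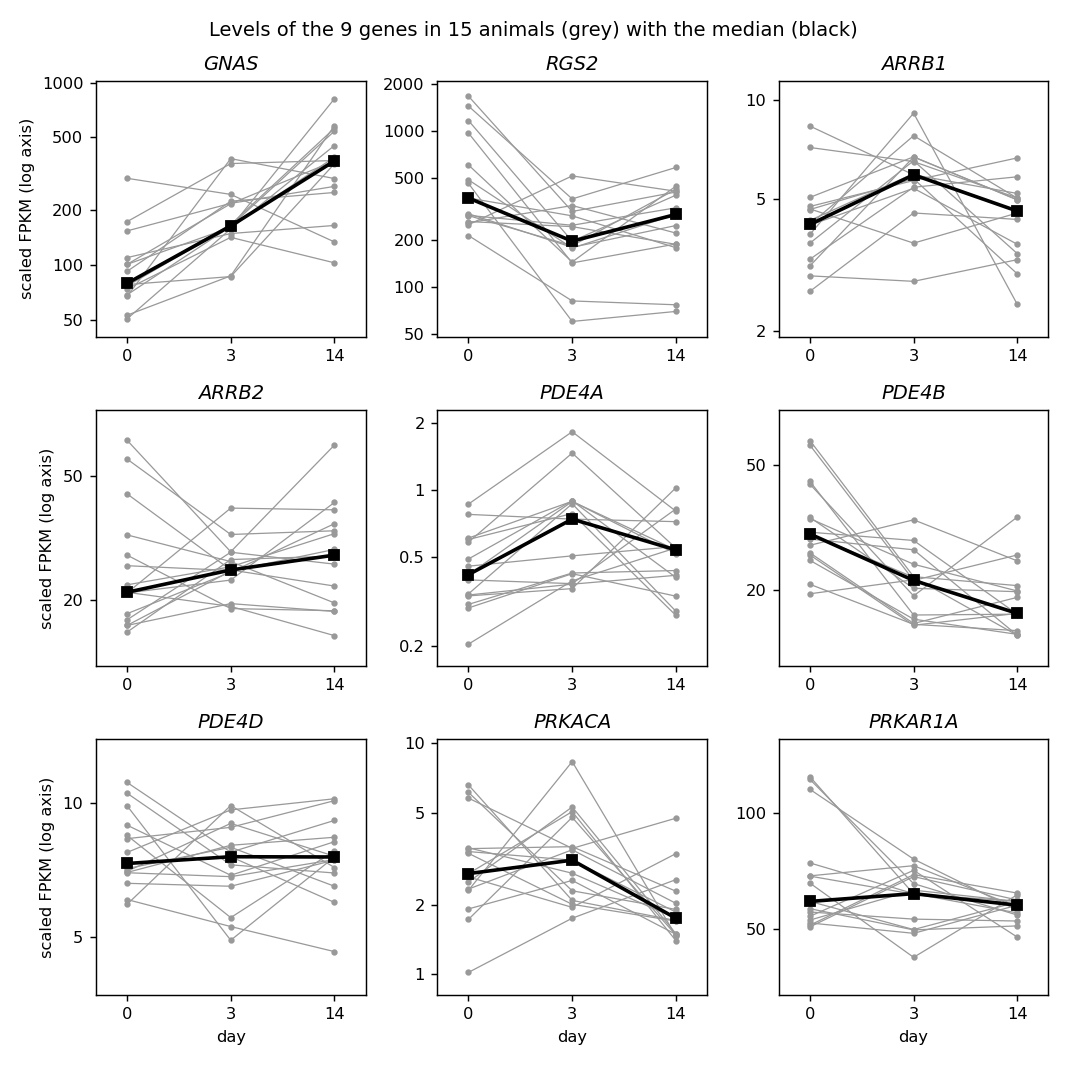
Each panel plots 1 of the 9 genes in scaled FPKM on a log axis at days 0, 3 and 14 (evenly spaced), with a grey line for each of the 15 animals and black squares for the median. The GNAS median climbs from 79.5 to 164 and 372, the PDE4B median falls from 30.1 to 21.4 and 16.8, and PRKAR1A narrows to between 47.7 and 62 on day 14.

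At the head of the pathway, ADRB1, the beta-1 receptor best known from the heart, had medians of 1.69, 1.39 and 1.51 scaled FPKM. Its log2 fold change on day 3 was −0.40 (standard error 0.19, limma adjusted p = 0.167, lower in 12 animals), and with the animal as a block the adjusted p was 0.0467. The alpha-2 receptors, the targets of xylazine and dexmedetomidine, were measured at low levels. ADRA2A had medians of 0.128, 0.224 and 0.112 scaled FPKM and a highest value of 1.19, on day 3. Its log2 fold change on day 3 was 0.71 (standard error 0.30, higher in 12 animals), with an adjusted p of 0.12 in limma and of 0.0186 with the animal as a block. ADRA2C had medians of 0.35, 0.33 and 0.208, and differed between day 3 and day 14 by −0.59 on the log2 scale (limma adjusted p = 0.115, 0.0299 with the animal as a block). ADRA2B stayed at or below 0.25 scaled FPKM in all 45 libraries, with no call in any comparison. Of the alpha-1 receptors, ADRA1A had medians of at most 0.0113 and was not called, and ADRA1B and ADRA1D did not pass the filter. ADRB3, the beta-3 receptor of fat tissue, did not pass it either, and its median was 0 at every time point.

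GNAS encodes the alpha subunit of Gs, which couples beta receptors to adenylyl cyclase, and on day 14 it had the largest log2 fold change of the 9 genes, whereas on day 3 that of RGS2 was larger in size. On day 0 it ranged from 50.8 to 299 scaled FPKM with a median of 79.5, on day 3 from 86.6 to 383 with a median of 164, and on day 14 from 103 to 815 with a median of 372. The ranges overlapped, but 9 of the 15 day 14 libraries lay above the highest day 0 library, and 11 day 0 libraries lay below the lowest day 14 library. GNAS rose on day 3 by a log2 fold change of 0.94, or 1.92-fold (standard error 0.25, limma adjusted p = 0.0118, higher in 14 of 15 animals). On day 14 the log2 fold change was 1.81, or 3.52-fold (standard error 0.25, adjusted p = 1.44e-06, higher in 14 animals). From day 3 to day 14 it rose by 0.87 (standard error 0.25, adjusted p = 0.0212, higher in 12 animals), a step that did not pass without animal 3, 8, 12 or 14 (adjusted p = 0.0515, 0.0744, 0.0533 and 0.053) or with RNA integrity as a covariate (0.0517).

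GNAS rose at both steps in 12 animals, and animals 4, 11 and 13 were the 3 exceptions. Animal 15 went from 101 scaled FPKM of GNAS on day 0 to 161 and then to 815, the highest scaled level of the 45 libraries. The paper reports that this animal alone was in quarantine during a hurricane, a possible further stressor. Any part of that event in its GNAS level was not tested. The day 14 library of animal 15 also had the lowest TMM factor, 0.538. Without TMM scaling its GNAS level was 438 FPKM, beside 436 in animal 12 on day 14 (562 scaled). Animal 13 had the highest day 0 level, 299, and went to 244 and then 134, the one animal below its own day 0 on day 14. Animal 4 had the lowest day 14 level, 103, after 74.1 on day 0 and 142 on day 3. The same 2 animals, 4 and 13, also had the lowest summed reticulocyte and erythroid precursor markers on day 14, at 6707 and 8188 scaled FPKM. Animal 13 had the highest sum of those markers on day 0, at 20761. All 10 of these markers were called as higher on day 14 and 6 of them on day 3, or 8 with the animal as a block. With RNA integrity as a covariate, 10 were called on day 14 and 4 on day 3. After the time point means were removed, GNAS followed the mean log2 level of these markers over the 45 libraries with a Pearson r of 0.80. In that mean each marker counts equally, unlike in the sum. The r of GNAS with the same mean of the other 6 cell type lists lay between −0.46 and 0.52. The points of this correlation share animals and scaling, it is a description, and the part of these cells in the rise of GNAS was not tested.

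**Figure D2:**
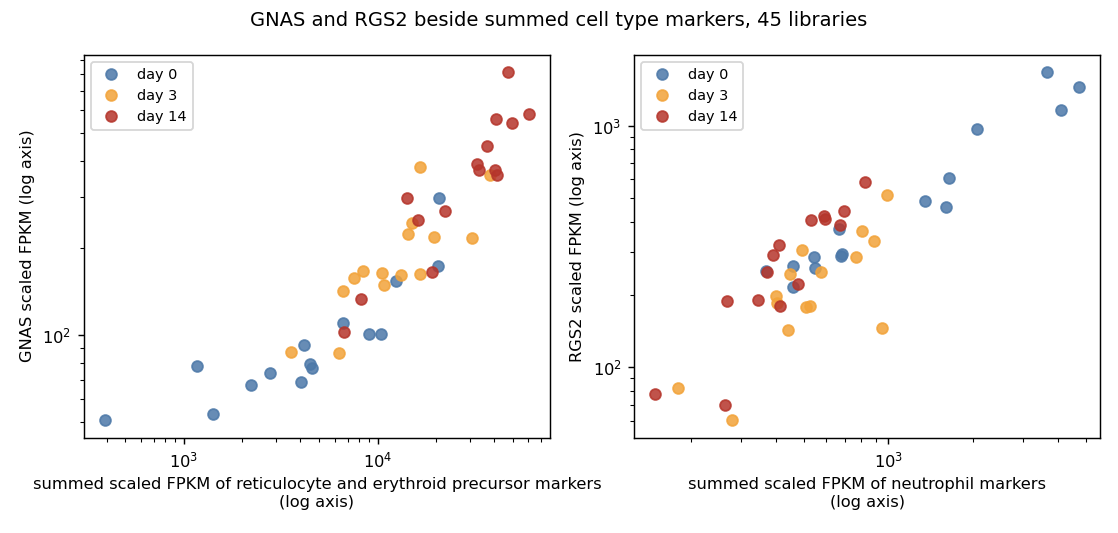
Each point is 1 of the 45 libraries, coloured by day, with both axes logarithmic in scaled FPKM: GNAS against the summed reticulocyte and erythroid precursor markers (left) and RGS2 against the summed neutrophil markers (right). High GNAS goes with a high erythroid sum within each day, and the 4 day 0 libraries with highest RGS2 are the 4 with the highest neutrophil sums, from 2067 to 4751.

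RGS2, which limits the signal of G proteins and is itself induced in many cells by signals that raise cAMP, was the most abundant of the 9 genes on day 0. It ranged from 214 to 1666 scaled FPKM on day 0 (median 372), from 60.4 to 515 on day 3 (median 197) and from 70 to 583 on day 14 (median 292). On day 0, 5 libraries lay above every day 3 library and 5 above every day 14 library, while the rest overlapped. RGS2 fell on day 3 by 1.21 on the log2 scale (standard error 0.32, limma adjusted p = 0.0108, lower in 13 animals) and on day 14 by 0.88 (standard error 0.32, adjusted p = 0.0278, lower in 12). The difference between day 3 and day 14 was 0.33, with an adjusted p of 0.509, and without TMM scaling it had the opposite sign, at −0.05.

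A group of 4 day 0 libraries made up the top of the RGS2 range: animal 11 at 1666, animal 15 at 1440, animal 7 at 1163 and animal 2 at 968 scaled FPKM. Their summed neutrophil markers were also the 4 highest of day 0, at 3651, 4751, 4079 and 2067 scaled FPKM, where the median was 687. Animals 7, 11 and 15 are 3 of the 4 libraries that stood apart. Without those 4 libraries the median RGS2 level on day 0 was 292, equal to that of day 14, and the log2 fold changes were −0.79 on day 3 (limma adjusted p = 0.0951) and −0.49 on day 14 (adjusted p = 0.21). The day 14 difference also missed the threshold without animal 2 (adjusted p = 0.0694), without animal 11 (0.0503) and with RNA integrity as a covariate (0.161). Of the 10 neutrophil markers, 7 were called as lower on day 3, or 9 with the animal as a block, and 10 on day 14. With RNA integrity as a covariate, 2 were called on day 3 and 5 on day 14. After removal of the time point means, RGS2 had an r of 0.88 with the mean log2 level of these markers over the 45 libraries, the highest of the 9 genes. The part of neutrophils in the fall of RGS2 was not tested.

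The 2 arrestins were measured at different levels and neither was called in any comparison. ARRB2, the more abundant, ranged from 15.7 to 65.2 scaled FPKM on day 0 (median 21.1), from 18.7 to 39.4 on day 3 (median 24.9) and from 15.3 to 62.9 on day 14 (median 27.8). Its log2 fold changes were 0.01 on day 3 (8 animals higher, 7 lower, limma adjusted p = 0.988) and 0.15 on day 14 (9 higher, 6 lower, adjusted p = 0.557), and both had the opposite sign without TMM scaling, at −0.03 and −0.27. The libraries of day 0 that were highest in RGS2 were also high in ARRB2, with 65.2 in animal 15, 56.7 in animal 7 and 43.8 in animal 11. Without the 4 libraries that stood apart, ARRB2 ranged from 15.7 to 32.3 on day 0 and its log2 fold change on day 14 was 0.42, with an adjusted p of 0.0256 from limma.

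ARRB1 peaked on day 3 in its median, with 4.2, 5.93 and 4.61 scaled FPKM. Its range was 2.64 to 8.32 on day 0, 2.83 to 9.1 on day 3 and 2.41 to 6.67 on day 14, so that the groups overlapped almost fully. The log2 fold change on day 3 was 0.41 (standard error 0.15, limma adjusted p = 0.0594, higher in 11 animals), and from day 3 to day 14 it was −0.39 (standard error 0.15, adjusted p = 0.0671, lower in 11). With the animal as a block both differences passed, with adjusted p of 0.0278 and 0.0328. The first also passed without animal 1, 5 or 14 (0.0494, 0.0319 and 0.0324), and the second without animal 5, 6, 7 or 10 (0.0386, 0.0399, 0.0438 and 0.0498) and without TMM scaling (−0.76, adjusted p = 0.00883). Against day 0, day 14 differed by 0.02 (7 animals higher, 8 lower), a value that took the opposite sign without TMM scaling (−0.39) and without the 4 libraries that stood apart (−0.07). The ratio of ARRB1 to ARRB2 within a library does not depend on the scaling. Its mean log2 value was −2.56 ± 0.86 on day 0, −2.15 ± 0.49 on day 3 and −2.69 ± 0.68 on day 14 (SD, n = 15), and it was lower on day 14 than on day 3 in 11 animals.

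**Figure D3:**
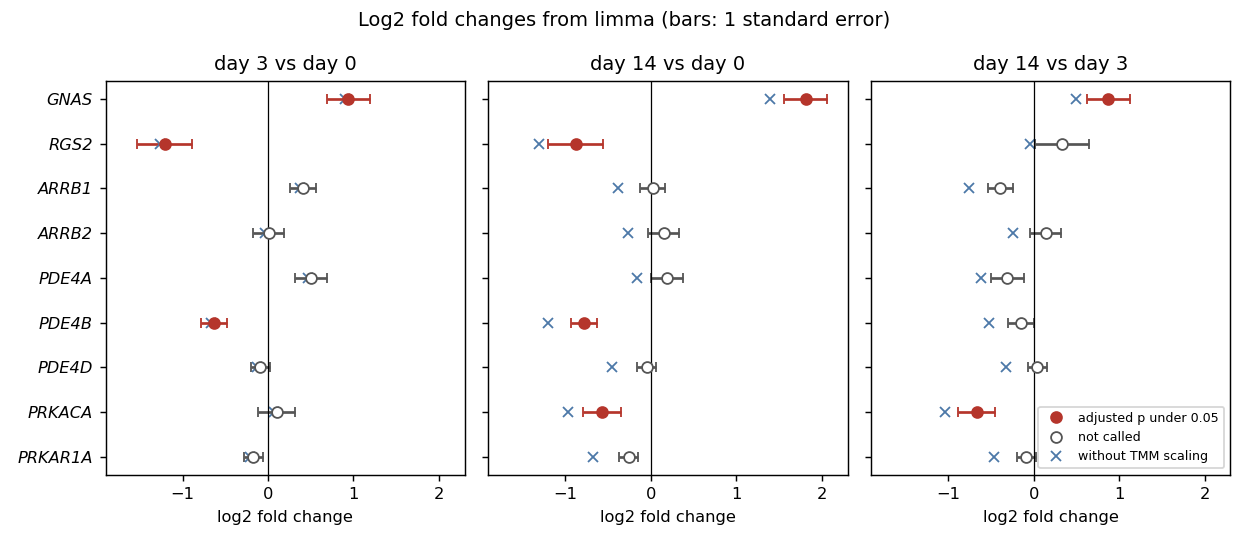
The 3 panels give the log2 fold change of each of the 9 genes with a bar of 1 standard error, filled red where the adjusted p was under 0.05, and blue crosses mark the same value without TMM scaling. The crosses lie to the left of the circles in both day 14 panels and close to them on day 3, and for GNAS they stay above 0 throughout (0.90, 1.39 and 0.49).

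Of the 3 PDE4 genes, PDE4B had the highest level and was the one called. PDE4B, the PDE4 enzyme that inflammatory stimuli induce in monocytes and neutrophils, ranged from 19.4 to 59.8 scaled FPKM on day 0 (median 30.1), from 15.4 to 33.4 on day 3 (median 21.4) and from 14.3 to 34.1 on day 14 (median 16.8). On day 14, 9 of the 15 libraries lay below the lowest day 0 library, and 4 day 0 libraries lay above the highest day 14 library. PDE4B fell on day 3 by 0.63 on the log2 scale (standard error 0.15, limma adjusted p = 0.00407, lower in 13 animals). On day 14 it fell by 0.78 (standard error 0.15, adjusted p = 5.78e-05), and it was lower in all 15 animals, the only one of the 27 gene comparisons in which the animals were unanimous. The smallest fall within an animal was 0.17 and the largest 1.53. The 2 later days differed by −0.15, with an adjusted p of 0.523, and by −0.53 without TMM scaling (adjusted p = 0.0125). The highest day 0 levels, 59.8 in animal 4 and 57.8 in animal 8, were not in libraries that stood apart. Without the 4 libraries that did, the log2 fold changes were −0.59 and −0.74 (limma adjusted p = 0.0162 and 0.000341). PDE4B had an r of 0.60 with the mean log2 level of the neutrophil markers after removal of the time point means. The part of neutrophils in the fall of PDE4B was not tested.

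PDE4D, another enzyme of the same family, had medians of 7.3, 7.56 and 7.55 scaled FPKM, with ranges of 5.91 to 11.1, 4.91 to 9.85 and 4.63 to 10.2. Its log2 fold changes were −0.09 on day 3 and −0.05 on day 14, each with 7 animals higher and 8 lower, and 0.04 between the later days (limma adjusted p = 0.647, 0.767 and 0.816). Without TMM scaling the day 14 difference was −0.46 (adjusted p = 0.0157), and that between the later days −0.33, of the opposite sign. The log2 ratio of PDE4B to PDE4D averaged 2.04 ± 0.52 on day 0, 1.50 ± 0.47 on day 3 and 1.31 ± 0.39 on day 14 (SD, n = 15), and the median ratios were 3.98, 2.48 and 2.26. The size of this ratio rests on the gene lengths behind the FPKM values, 10293 bases for PDE4B and 20726 for PDE4D. Whether these lengths match the transcripts in blood was not tested. The ratio was lower than on day 0 in 12 animals on day 3, by 0.54 ± 0.64 on average, and in 14 on day 14, by 0.73 ± 0.41.

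PDE4A had the lowest level of the 9 genes, with 19 to 221 fragments per library. Its row was matched by gene identifier, and whether that gene model covers the whole transcript was not tested, so its level, rank and ratios hold for the row as annotated. It ranged from 0.203 to 0.862 scaled FPKM on day 0 (median 0.416), from 0.36 to 1.82 on day 3 (median 0.738) and from 0.273 to 1.02 on day 14 (median 0.537). On day 3, 13 animals were above their own day 0, and 6 day 3 libraries lay above every day 0 library. The log2 fold change on day 3 was 0.50 (standard error 0.19, limma adjusted p = 0.0786), and with the animal as a block the adjusted p was 0.024. The values of 2 animals, 1.82 in animal 2 and 1.46 in animal 8, lay above the rest on day 3, and the library of animal 8 stood apart. Without the 4 libraries that did, the log2 fold change was 0.36, with an adjusted p of 0.272. On day 14 the difference from day 0 was 0.19 (8 animals higher, 7 lower, adjusted p = 0.46), and −0.16 without TMM scaling. Between the later days it was −0.31 (adjusted p = 0.274), and −0.62 without TMM scaling (adjusted p = 0.029). The log2 ratio of PDE4A to PDE4B was higher than on day 0 in 14 animals on each later day, by 1.22 ± 0.99 on day 3 and 1.02 ± 0.78 on day 14 (SD, n = 15), while PDE4A remained far below PDE4B, with a median ratio of 0.028 on day 14.

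**Figure D4:**
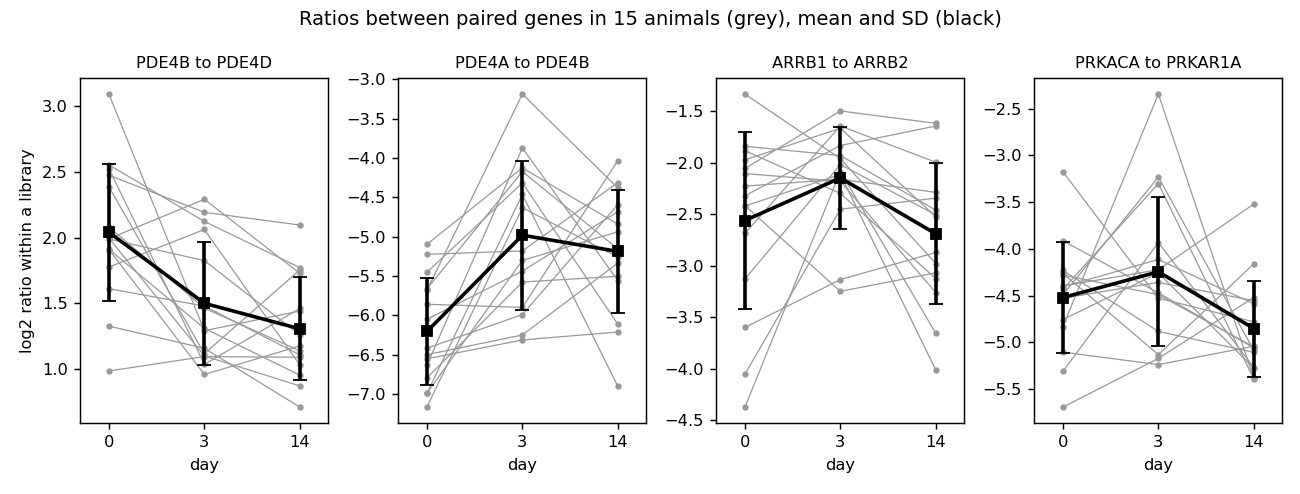
The 4 panels plot log2 ratios between paired genes within a library at days 0, 3 and 14 (evenly spaced), with a grey line per animal and black squares for the mean with a bar of 1 SD over 15 animals. The mean ratio of PDE4B to PDE4D falls from 2.04 to 1.31 and that of PDE4A to PDE4B climbs from −6.20 to −4.98 and −5.19, while ARRB1 to ARRB2 and PRKACA to PRKAR1A are highest on day 3.

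Of the protein kinase A subunits, PRKACA, a catalytic subunit, was called on day 14 only. It was low in these tables, with 28 to 371 fragments per library, and as for PDE4A whether its gene model is complete was not tested, which bears on its level, rank and ratio to PRKAR1A. It ranged from 1.02 to 6.6 scaled FPKM on day 0 (median 2.73), from 1.75 to 8.33 on day 3 (median 3.12) and from 1.4 to 4.74 on day 14 (median 1.75). On day 14, 8 libraries lay below every day 3 library. PRKACA fell by 0.57 on the log2 scale from day 0 to day 14 (standard error 0.22, limma adjusted p = 0.0347, lower in 13 animals) and by 0.67 from day 3 to day 14 (standard error 0.22, adjusted p = 0.0341, lower in 12). Neither call was stable. The first did not pass without animal 2, 7, 11 or 14 (adjusted p = 0.0581, 0.0827, 0.0606 and 0.0648) and the second without animal 2, 3, 8, 9 or 12 (0.0904, 0.077, 0.114, 0.0768 and 0.0557). With RNA integrity as a covariate the adjusted p values were 0.328 and 0.105, and without the 4 libraries that stood apart they were 0.131 and 0.0488. On day 3 the difference from day 0 was 0.10, with 8 animals higher and 7 lower.

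PRKAR1A, the regulatory subunit that holds the kinase inactive, kept its median at 59, 61.8 and 57.7 scaled FPKM, but its range shrank from 50.7 to 124 on day 0, to 42.3 to 75.9 on day 3 and 47.7 to 62 on day 14. On the log2 scale the SD over animals was 0.46, 0.25 and 0.10, and on day 14 it was the smallest of the 9 genes. The 3 highest day 0 values, 124 in animal 7, 122 in animal 15 and 115 in animal 11, belonged to the libraries that stood apart, and without them the day 0 range ended at 74.2 and the SD was 0.19. The log2 fold change on day 14 was −0.26 (standard error 0.11, limma adjusted p = 0.0707, lower in 11 animals), −0.06 without the 4 libraries that stood apart, and −0.68 without TMM scaling (adjusted p = 2.39e-05). It passed without animal 1, 6 or 10 (adjusted p = 0.0312, 0.0313 and 0.032). On day 3 it was −0.17 (adjusted p = 0.37) and 0.07 without those 4 libraries, and between the later days −0.09, or −0.47 without TMM scaling (adjusted p = 0.00547).

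Ordered by median level on day 0, the genes were RGS2, GNAS, PRKAR1A, PDE4B, ARRB2, PDE4D, ARRB1, PRKACA and PDE4A. In 2 of the 8 steps of this order, ARRB2 over PDE4D and PRKACA over PDE4A, the ranges did not overlap. RGS2 lay above GNAS in all 15 animals on day 0 and in 8 on day 3, while GNAS lay above RGS2 in 10 animals by day 14. PDE4B lay above ARRB2 in 10 animals on day 0, whereas ARRB2 lay above PDE4B in 11 on day 3 and 13 on day 14. The lower end of the order, PDE4D, ARRB1, PRKACA and PDE4A, was the same at all 3 time points.

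After the time point means were removed, the genes fell into no single common pattern over the 45 libraries. The closest pair was RGS2 and ARRB2, with a Pearson r of 0.72, followed by RGS2 and PRKAR1A with 0.59 and ARRB2 and PRKACA with 0.57. The lowest value was that of PDE4A and PRKAR1A, −0.44. Of the 10939 tested genes with a mean of at least 5 CPM (fragments relative to the library total), the 3 most like GNAS were SPECC1, ARHGEF12 and AKT2, with r between 0.878 and 0.896. Those most like RGS2 were IGSF6, LACTB and LOC103234746 (0.909 to 0.92), and those most like ARRB2 included PDLIM7 and PIM1 (0.914 and 0.906). PRKAR1A was most like CAB39, ACTR3 and ACTR2 (0.883 to 0.908), and PRKACA most like TTYH3, WIZ and CMIP (0.866 to 0.895). PDE4B was most like RNF169, FNIP1 and SMCHD1 (0.769 to 0.819), ARRB1 most like MYO18A, EXTL3 and PPP2R1A (0.773 to 0.816), and PDE4A most like TTLL3, DGKZ and SMAD3 (0.744 to 0.801). PDE4D had the weakest match, with FAM126A, PGAP1 and SYTL2 at 0.64 to 0.712. These values share libraries and animals and are given as descriptions.

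The rest of the pathway was read from 11 lists of 93 other genes, of which 86 were tested. On day 3 against day 0, 10 rose and 3 fell, beside 6.01% higher and 6.19% lower over all tested genes. On day 14, 16 rose and 12 fell, beside 18.8% and 17.3%. Between day 3 and day 14, 2 rose and 8 fell, beside 8.38% and 5.01%. The counts of single lists on day 14 given below are to be read against the same 18.8% and 17.3%. The median log2 fold changes of the 86 genes were 0.09, −0.02 and −0.09. The called share was 28 of 86 on day 14, near the 36% of all tested genes. With the animal as a block, 24, 34 and 18 genes were called, where the same fit called 19.2%, 44% and 23.7% of all tested genes. Without TMM scaling, 5 rose and 38 fell on day 14, so the balance of directions on that day depends on the scaling. With RNA integrity as a covariate, 9, 13 and 6 were called, where 7.66%, 19.9% and 6.05% of all tested genes were. The day 14 calls of HRH2, GNG11, RGS16, PKIG, AKAP13, RAP1A and ABCC4, described below, held under every alternative tried. Without TMM scaling the day 14 calls of PTGIR, PTGDR, GRK5, RGS1, RGS18, PKIA, EZR, RAP1B and SLC18A2 were lost, and without the 4 libraries that stood apart those of PTGDR, GNB2, GNG2, ADCY4, GRK5, RGS1, PKIA, EZR and MAOA.

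**Figure D5:**
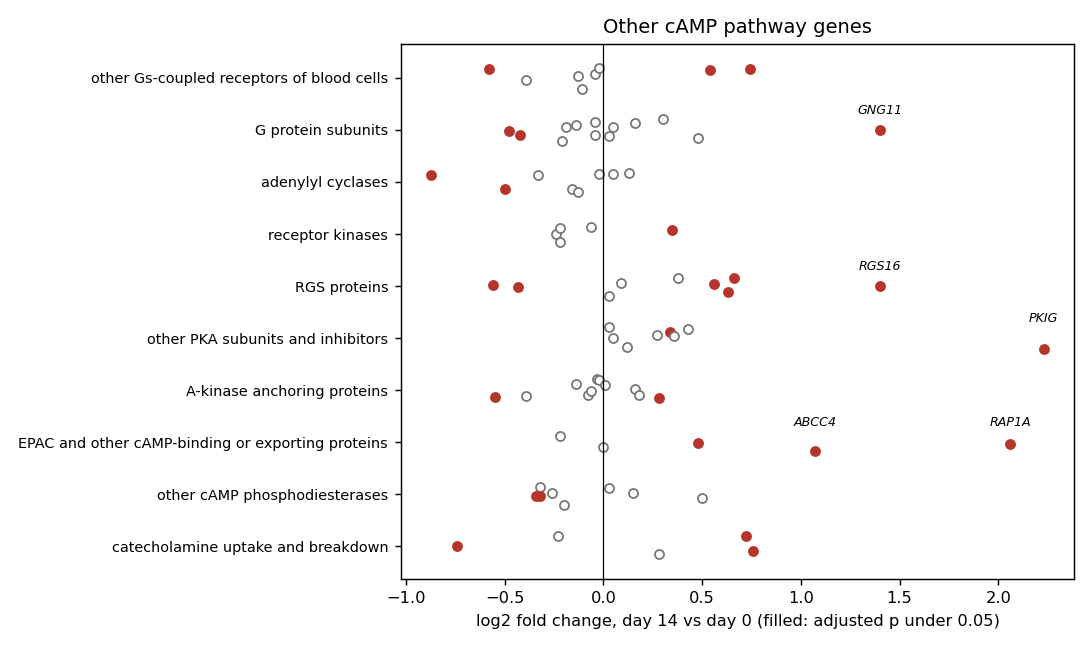
Each point is 1 of 80 tested pathway genes on 10 lists (the adrenergic receptors are not drawn), placed by its log2 fold change on day 14 against day 0 within its list, and filled where the adjusted p was under 0.05. PKIG (2.23), RAP1A (2.06), GNG11 (1.40), RGS16 (1.40) and ABCC4 (1.07) lie above 1, and no called gene lies below −1.

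Among 8 other receptors that couple to Gs, the prostacyclin receptor PTGIR had medians of 0.804, 2.31 and 1.63 scaled FPKM. PTGIR rose on day 3 by a log2 fold change of 1.32 in all 15 animals (standard error 0.17, limma adjusted p = 1.1e-05), and on day 14 by 0.74 (adjusted p = 0.000856, higher in 14, but 0.0573 with RNA integrity as a covariate). PTGIR is known from platelets, and all 10 platelet markers were called as higher on day 3 and 3 of them on day 14, or 7 with the animal as a block. With RNA integrity as a covariate, 10 were called on day 3 and 0 on day 14. The medians of their sum were 644, 2006 and 1479 scaled FPKM. The part of platelets in the rise of PTGIR was not tested. The histamine H2 receptor HRH2 fell on day 14 by 0.58 (limma adjusted p = 0.00204, lower in 13 animals), from a median of 4.92 to 3.48, and the prostaglandin D2 receptor PTGDR rose by 0.54 (adjusted p = 0.0407, higher in 11). The PTGDR call was lost with RNA integrity as a covariate (0.153) and without any of 9 single animals (up to 0.106). The adenosine receptor ADORA2A and the prostaglandin E2 receptor PTGER4, the 2 with medians above 15, were not called.

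Of 13 other G protein subunits, 1 rose and 2 fell on day 14, and 4 were called with the animal as a block. GNG11, a gamma subunit, went from a median of 23.1 to 57 scaled FPKM and rose by a log2 fold change of 1.40 (limma adjusted p = 0.000693, higher in 13 animals). GNB2 fell by 0.48 (adjusted p = 0.0327, lower in 9 animals) and GNG2 by 0.42 (adjusted p = 0.0108, lower in 11). Both calls were lost with RNA integrity as a covariate (0.0699 and 0.186) and without the 4 libraries that stood apart, where the values were −0.21 and −0.19, and that of GNB2 also without animal 2, 7, 8, 11, 13 or 15 (up to 0.0754). The inhibitory subunit GNAI2, which alpha-2 receptors use, had medians of 69.6, 84.3 and 71 and was not called. Of 8 adenylyl cyclases tested, ADCY4 fell on day 14 by 0.87 (limma adjusted p = 0.0287) and ADCY10, the soluble cyclase, by 0.50 (adjusted p = 0.00123), both lower in 12 animals. The ADCY4 medians were 1.91 and 1.76 scaled FPKM, with a day 0 range of 1.17 to 18.2. Its call was lost without animal 2, 7 or 11 (up to 0.0717), without the 4 libraries that stood apart (−0.37, adjusted p = 0.245) and with RNA integrity as a covariate (0.332), which also ended that of ADCY10 (0.0623). ADCY7, the most abundant cyclase, with medians of 37, 36.1 and 32.4, was not called.

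Of 5 kinases that phosphorylate receptors for the arrestins, GRK5 alone was called on day 14, with a log2 fold change of 0.35 (limma adjusted p = 0.0336, higher in 11 animals), and without TMM scaling the value was −0.07. The call was lost without any of 10 single animals (up to 0.0884) and with RNA integrity as a covariate (0.247). GRK2, the one best known for beta receptors, had medians of 53, 49.7 and 46.8 scaled FPKM and was not called. Of 9 RGS proteins other than RGS2, 4 rose and 2 fell on day 14, where 18.8% of all tested genes were called as higher and 17.3% as lower. With the animal as a block 7 of them were called on day 14, and with RNA integrity as a covariate 3, where 44% and 19.9% of all tested genes were. RGS16 rose by 1.40 (limma adjusted p = 0.000835, higher in 14 animals) at a low level, with medians of 0.259, 0.483 and 0.738. RGS1 rose by 0.66 (adjusted p = 0.0424) and RGS18, a regulator known from platelets, by 0.63 (adjusted p = 0.0471), from a median of 110 to 220. The calls of RGS1 and RGS18 were lost with RNA integrity as a covariate (0.0829 and 0.149) and without any of 12 and of 10 single animals (up to 0.11 and 0.139). RGS2 fell in the same comparison.

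Of 8 other protein kinase A subunits and inhibitors, 2 rose on day 14, both inhibitors of the catalytic subunits, and 3 were called with the animal as a block. PKIG, the larger change, had medians of 77.3, 164 and 391 scaled FPKM and a log2 fold change of 2.23 (standard error 0.40, limma adjusted p = 3.79e-05, higher in 14 animals). PKIA had a log2 fold change of 0.34 (adjusted p = 0.0309, higher in 14 animals), which was −0.07 without TMM scaling, and its call was lost with RNA integrity as a covariate (0.226) and without any of 7 single animals (up to 0.0811). PRKACB, the catalytic subunit with a median of 37.1 on day 0, was not called. On day 3 the regulatory subunit PRKAR2B alone of this list rose, by 0.99 (limma adjusted p = 0.00121, higher in 14 animals). Between the later days PRKAR2B fell by 0.56 (adjusted p = 0.0464, lower in 13, but 0.0563 with RNA integrity as a covariate). Of 11 anchoring proteins that place the kinase in the cell, 1 rose and 1 fell on day 14, and 3 were called with the animal as a block. AKAP13 fell by 0.55 (limma adjusted p = 0.000447, lower in 13 animals), from a median of 68.1 to 41.1. EZR had a log2 fold change of 0.28 (adjusted p = 0.0291), and −0.14 without TMM scaling, with the call lost with RNA integrity as a covariate (0.323) and without any of 8 single animals (up to 0.11).

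Of 5 tested genes that bind, relay or export cAMP outside the kinase, 3 rose on day 14. RAP1A, a small GTPase that the cAMP sensor EPAC activates, had medians of 98.1, 139 and 399 scaled FPKM and a log2 fold change of 2.06 (standard error 0.34, limma adjusted p = 1.41e-05, higher in 14 animals). ABCC4, which exports cAMP from cells, rose by 1.07 (adjusted p = 0.000531, higher in 13), and RAP1B by 0.48 (adjusted p = 0.00497, higher in 12, but 0.0671 with RNA integrity as a covariate). The EPAC genes themselves, RAPGEF3 and RAPGEF4, had medians of at most 0.13 and were not called. Of 8 tested phosphodiesterases outside the 3 PDE4 genes above, none rose and 2 fell on day 14, and 4 were called with the animal as a block. PDE7A fell by 0.34 (limma adjusted p = 0.013, lower in 13 animals, but 0.15 with RNA integrity as a covariate) and PDE8A by 0.32 (adjusted p = 0.0021). PDE8A, like PDE4B, was lower in all 15 animals, and its call was lost when the block and RNA integrity were fitted together. On day 3, where 6.01% of all tested genes were called as higher, PDE3A alone of the 8 rose. Its log2 fold change was 1.23 (standard error 0.30, limma adjusted p = 0.00611, higher in 13 animals).

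Among 5 genes for the uptake and breakdown of catecholamines, the vesicle transporter SLC18A2 had medians of 3.66, 6.44 and 6.35 scaled FPKM. SLC18A2 rose on day 3 by 0.96 on the log2 scale (limma adjusted p = 0.00229, higher in all 15 animals). On day 14 it was 0.72 above day 0 (adjusted p = 0.00513, higher in 13 animals). MAOA, a monoamine oxidase, fell on day 14 by 0.74 (limma adjusted p = 0.0498, lower in 11), from a median of 0.731 to 0.268. The MAOA call was lost with RNA integrity as a covariate (0.0804) and without any of 8 single animals (up to 0.124).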

How the data were processed

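Whole blood RNA was sequenced after ribosomal and globin RNA depletion (stranded paired-end libraries). Per the study's methods, reads were aligned to the Chlorocebus_sabeus 1.1 assembly with STAR and fragments were counted with HTSeq, and the submitters' processing notes also name bcl2fastq 2.17. The authors deposited 1 table of FPKM values per library, 33994 genes each, with no replicates pooled. Time points were taken from the labels, which give day 14 for the last one where the design text gives a day later. PDE4A and PRKACA were matched by RefSeq gene ID.

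The FPKM steps gave whole fragments for every gene above 0 (tolerance 0.05), which supplied the library totals. Genes above 0.5 CPM in at least 3 libraries were kept (18753). Values were divided by TMM factors (0.538 to 1.49), transformed as log2(FPKM + 0.1) and fitted with limma 3.58.1 in R 4.3.3, with 1 mean per time point over 45 libraries and Benjamini-Hochberg adjustment, so fold changes of low genes are understated. The script was tested on simulated data. Labels pair the libraries by animal: deviations from the time point means correlated within animals (mean r 0.328, above 0.1 in 15 of 15 animals) and not between them (−0.0231), and blocked values stand beside the calls of the 9 genes they change. No 2 libraries were alike beyond an r of 0.99. Alternatives were the animal as a block, RNA integrity number as a covariate, other scalings, pseudocounts of 0.01 and 1, no filter, an exact sign-flip test within animals, and leaving out each animal or 4 libraries. Named were the 9 genes, the adrenergic receptors, up to 3 called genes per pathway list with the largest day 14 change, and the 3 genes most like each member; 3 genes under this rule are not reported here. GNAI2, GRK2, ADCY7, ADORA2A, PTGER4, PRKACB, PRKAR2B, PDE3A, RAPGEF3 and RAPGEF4 were named after their values were seen. The genes and lists were chosen with earlier results of these data known.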

Additional observations from a re-analysis of the deposited data

How the results depend on the processing

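Of 675 fold changes of the 9 genes under alternatives, 593 kept their direction and their side of the threshold, 29 lost the call, 25 gained one and 28 changed sign, and the causes were not tested. With the animal as a block, 5 of the 9 genes and 24 of the other pathway genes were called on day 3 (5 and 22 by the exact sign-flip test) and 18 of the others between day 3 and day 14 (17 by the sign-flip test), and beyond the calls already named the block changed none among the 9 genes. With RNA integrity as a covariate, 2 of the 9 and 13 of the others were called on day 14, and 0 and 6 between the later days (limma, 3 of the 9 at an unadjusted p under 0.05). With both the block and this covariate, the counts of the 9 were 5, 2 and 0 (3 at an unadjusted p under 0.05), and PDE4D between the later days was −0.01. Without TMM scaling, 8, 43 and 45 of the other genes were called in the 3 comparisons, and 6 of the 9 both on day 14 and between the later days. The sign then turned for ARRB2 (−0.03, −0.27 and −0.24 in the 3 comparisons), ARRB1 (−0.39) and PDE4A (−0.16) on day 14, and RGS2 (−0.05) and PDE4D (−0.33) between the later days. With median of ratios scaling ARRB2 on day 3 was −0.01. With no filter, 1 of the 9 and 6 of the others were called between the later days, as PRKACA lost its call (adjusted p = 0.0581, and 0.0596 on day 14). Without the 4 libraries that stood apart, an alternative chosen after seeing the data, PRKAR1A on day 3 was 0.07, ARRB1 on day 14 −0.07 and PDE4D between the later days −0.001.

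Leaving out single animals gave 2 to 5 calls among the 9 on day 14 and 0 to 3 between the later days, and among the others 8 to 14 on day 3 and 5 to 12 between the later days, with the fewest on day 3 without animal 2 and between the later days without animals 2 and 12 (5 each) and 8 (6). The log2 fold change ranged from −0.06 to 0.10 for ARRB2 and −0.02 to 0.22 for PRKACA on day 3, from −0.06 to 0.07 for ARRB1 on day 14, and from −0.003 to 0.08 for PDE4D between the later days. Depth limits PDE4A and PRKACA, with at most 221 and 371 fragments in a library, and the alpha receptors.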
